A study of Mus musculus with 18 samples.

Results

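The opioid system of the mouse comprised 8 genes here, 4 that encode peptide precursors (Penk, Pdyn, Pnoc and Pomc) and 4 that encode receptors (Oprm1, Oprd1, Oprk1 and Oprl1). They were chosen by symbol, and all 8 were listed in both count tables, among 15410 symbols in all. RNA was sequenced from the colon and the spinal dorsal horn of mice of genotype WT in 3 groups of 3 libraries per tissue. The sham group was given IgG without a tumour. The cancer group had a tumour in bone and was given IgG, and the nivolumab group had that tumour and was given nivolumab, which was made as an antibody to human PD-1. The sources used here name neither the tumour line nor the dose, and the extraction protocol names spinal cord rather than dorsal horn. The labels do not say whether the libraries of a group came from separate animals, so p-values reflect only how far these libraries spread, which may be technical variation.

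Opioid peptides are cut from larger precursor proteins and released by neurons. They bind receptors that couple to inhibitory G proteins, which close calcium channels, open potassium channels and lower cyclic AMP. In the dorsal horn, where sensory fibres of the body end, enkephalins, dynorphins and nociceptin are made by local interneurons, and opioid receptors on fibre endings and on dorsal horn neurons dampen the relay of pain. In the colon, enkephalin and dynorphin are made mainly by neurons of the enteric plexuses, and their receptors slow motility and secretion.

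The precursor genes differ in how many opioid units they carry, which bears on what a change in each transcript stands for. In the GENCODE M21 transcripts of the GRCm38 build, the Penk coding sequence of 807 bases held 7 enkephalin units, 6 for Met-enkephalin and 1 for Leu-enkephalin. That of Pdyn (747 bases) held 3 Leu-enkephalin units, each the start of a longer dynorphin-type peptide. That of Pomc (708 bases) held 1 Met-enkephalin unit, the start of beta-endorphin, and that of Pnoc (639 bases) held the single unit that opens nociceptin. A unit of each kind is printed from 5′ to 3′ on the coding strand, with the first codon in capitals. It encodes tyrosine in the enkephalin type and phenylalanine in nociceptin, the residue by which nociceptin differs from the classical opioids at its start. Bases are counted from the A of the start codon.
Penk Met-enkephalin unit, bases 298 to 312: TACggaggcttcatg
Penk Leu-enkephalin unit, bases 691 to 705: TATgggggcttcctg
Pdyn unit, bases 496 to 510: TATggcggctttttg
Pomc unit, bases 613 to 627: TACggtggcttcatg
Pnoc unit, bases 421 to 435: TTTgggggcttcacc

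Total counts ran from 20896854 to 30803957 per library in the colon and from 21855085 to 29071908 in the dorsal horn, where a floor of 3 counts corresponds to 0.103 to 0.132 CPM (counts relative to TMM-scaled library size). Libraries of the dorsal horn carried neuronal markers throughout, with a sum over 10 markers of 11640 to 14660 CPM, and the colon libraries carried 9357 to 23864 CPM of 7 epithelial markers. They also differed in tissue that neighbours the cord. The sum of 12 dorsal root ganglion neuron markers was 18.5, 15.3 and 323 CPM in sham 1 to 3, 17.9, 16.5 and 358 in cancer 1 to 3, and 1060, 681 and 1239 in nivolumab 1 to 3. Mrgprd, a receptor confined to a class of sensory neurons, was at 0 in the 4 libraries with the lowest sums. Sensory neurons of the ganglion also express opioid receptors. A fit that holds this marker mean as a covariate is therefore given wherever it changed a dorsal horn call. So is a fit without sham 3 and cancer 3. All 3 nivolumab libraries had higher sums than every other library, so ganglion tissue and nivolumab cannot be told apart here. The covariate fit carries a slope from within the groups across this gap.

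Levels of different genes are compared as CPM per kilobase (kb) of exon, a scale that can understate genes with long annotated exons such as Oprk1 (9151 bases) and Oprm1 (8037 bases). Penk stood highest in both tissues and all 3 groups, with 110 ± 12.4 CPM per kb in the sham dorsal horn (SD, n = 3). Oprl1, the nociceptin receptor gene, followed with 20.9 ± 1.72 CPM per kb. Pdyn with 4.802 ± 1.27 and Pnoc with 4.33 ± 0.272 came next, and their sham libraries overlapped. Oprd1 (1.91 ± 0.489), Oprk1 (1.19 ± 0.1097), Pomc (0.450 ± 0.0431) and Oprm1 (0.225 ± 0.0311) followed in that order, each apart from the next in the sham libraries. Among neighbours in the order, Pnoc and Pdyn overlapped in the cancer libraries too, as did Oprd1 and Oprk1, and in the nivolumab libraries Pdyn overlapped Pnoc and Oprk1 overlapped Pomc.

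**Figure D1:**
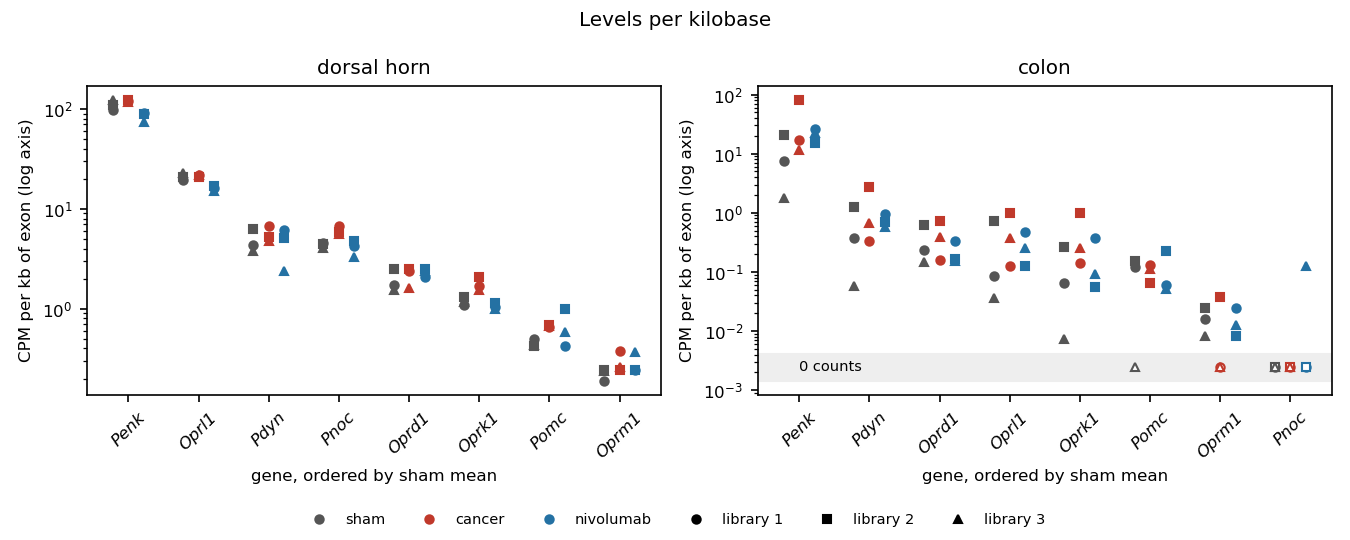
Levels of the 8 opioid genes in CPM per kb of exon on a log axis, in the dorsal horn (left) and the colon (right), with 1 point per library, colour for the group and shape for the library number. Genes are ordered by their sham mean, and open symbols in the grey band of the colon panel are libraries with 0 counts. Within each group of each tissue Penk lies above every other gene, and the colon libraries of a gene spread far wider than those of the dorsal horn.

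In the dorsal horn, Penk, the enkephalin precursor, had 160.2, 179.2 and 200.6 CPM in the sham libraries, 196.6, 200.6 and 191.5 in the cancer libraries and 149.1, 146.4 and 122.1 in the nivolumab libraries. The nivolumab libraries were the lowest 3 of the 9, while sham and cancer overlapped. Pnoc, the nociceptin precursor, had 9.78, 9.58 and 8.68 CPM in sham, 14.5, 12.6 and 12.1 in cancer and 9.17, 10.2 and 7.07 with nivolumab. All 3 cancer libraries lay above all 6 others, and sham overlapped nivolumab.

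Pdyn, the dynorphin precursor, had 12.62, 17.98 and 10.99 CPM in sham, 19.52, 14.99 and 13.60 in cancer and 17.70, 14.81 and 6.85 with nivolumab. Its groups overlapped, and nivolumab 3 was the lowest library of all. Pomc, the precursor of beta-endorphin and of melanocortins, had 0.658, 0.552 and 0.569 CPM in sham, 0.873, 0.913 and 0.883 in cancer and 0.562, 1.30 and 0.777 with nivolumab, from 13 to 38 counts a library. The cancer libraries lay above the sham libraries, and those of the nivolumab group spanned both.

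Among the receptor genes, Oprl1 had 72.1, 78.0 and 85.1 CPM in sham, 82.6, 79.0 and 82.0 in cancer and 60.6, 63.2 and 56.9 with nivolumab. As for Penk, the 3 nivolumab libraries were the lowest of the 9. Oprk1, the gene of the kappa receptor for dynorphins, had 10.07, 12.03 and 10.65 CPM in sham, 15.3, 18.8 and 14.2 in cancer and 9.56, 10.6 and 9.03 with nivolumab. As for Pnoc, the cancer libraries lay above all 6 others and sham overlapped nivolumab.

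Oprd1, the gene of the delta receptor for enkephalins, had 6.91, 9.94 and 6.25 CPM in sham, 9.67, 10.1 and 6.45 in cancer and 8.26, 10.1 and 9.66 with nivolumab. Oprm1, the gene of the mu receptor through which morphine acts, had 1.52, 1.97 and 1.93 CPM in sham, 3.04, 1.94 and 2.12 in cancer and 1.947, 1.954 and 2.961 with nivolumab. The groups overlapped in both genes, and the highest values of Oprm1 were single libraries, cancer 1 and nivolumab 3.

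**Figure D2:**
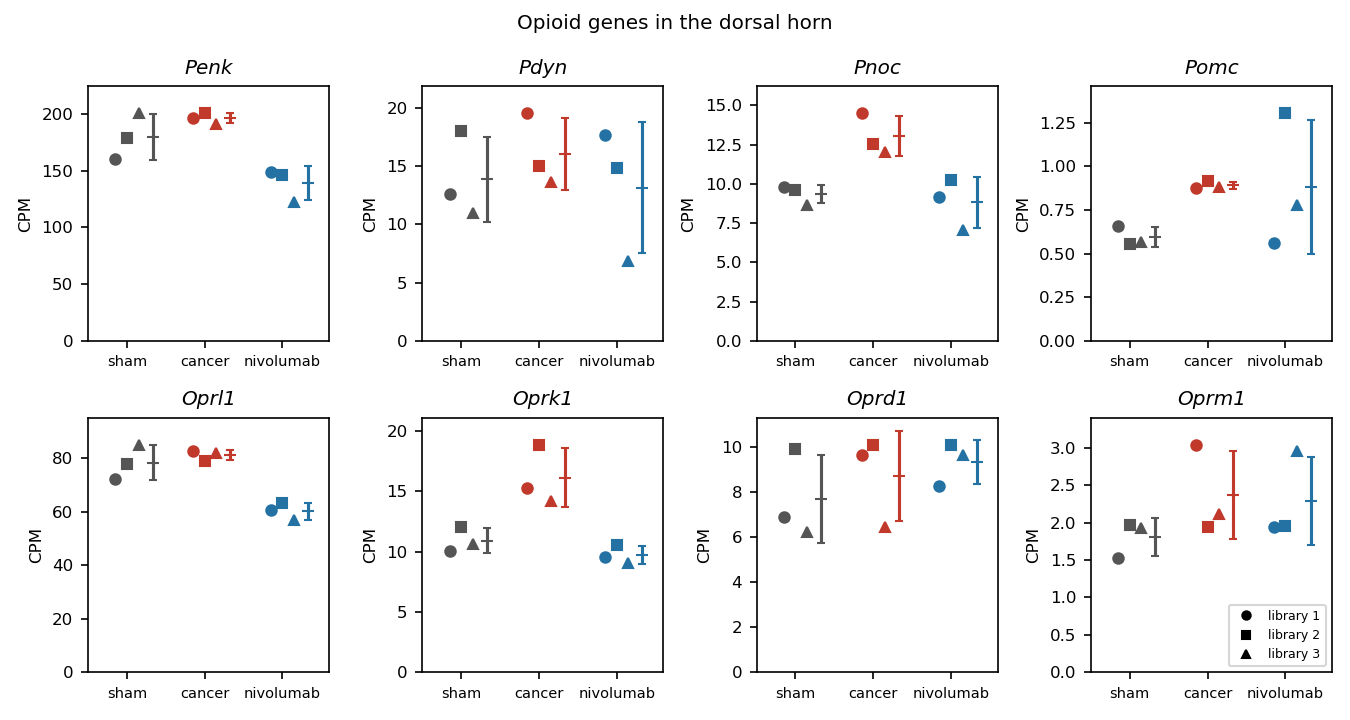
CPM of the 8 opioid genes in the dorsal horn, with 1 point per library (shape for the library number) and the mean ± SD of each group of 3 beside the points. The nivolumab libraries of Penk (122.1 to 149.1 CPM) and Oprl1 (56.9 to 63.2 CPM) lie below all others, and the cancer libraries of Pnoc and Oprk1 lie above all others.

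Cancer was compared with sham to ask whether the tumour was accompanied by a change in the opioid genes of the cord. None of the 8 genes passed the threshold of 0.05 on the adjusted p of edgeR, against 0.323% of all 13609 genes tested. The log2 fold changes were all positive, from 0.05 (Oprl1) to 0.58 (Pomc), with a median of 0.30 against 0.01 for all genes, of which 51.4% were positive. Without sham 1 the value of Oprl1 was −0.00436. Of the 8 genes, 3 had cancer libraries wholly above sham, namely Pnoc, Pomc and Oprk1, a separation in this direction that 8.46% of all genes showed. Cell type markers moved in this comparison too. Of those for oligodendrocytes 3 of 7 were called lower, as were all 4 tested for red blood cells, and 1 of 11 excitatory neuron markers was called higher. The inhibitory neuron marker sum was 946 to 1034 CPM in sham and 1073 to 1224 in cancer. The part of these cell types was not tested.

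Oprk1 was 1.48-fold higher in cancer (log2 fold change 0.56, SE 0.13, adjusted p = 0.126), and it was 1 of the 2 genes with an unadjusted p under 0.05, which 13.1% of all genes had. The other was Pnoc, which was 1.40-fold higher (0.48, SE 0.15, adjusted p = 0.220). Oprk1 passed with DESeq2 (adjusted p = 0.0195) and with the ganglion marker mean as a covariate (adjusted p = 0.0428), and its adjusted p otherwise ran up to 0.424 over the alternatives. In this comparison DESeq2 called 366 of all genes, against 44 with edgeR. The 95% intervals of the other log2 fold changes were −0.09 to 0.34 for Penk, −0.56 to 0.98 for Pdyn, −0.25 to 1.42 for Pomc, −0.24 to 1.01 for Oprm1, −0.30 to 0.67 for Oprd1 and −0.11 to 0.21 for Oprl1.

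Nivolumab was compared with cancer to ask what differed with the antibody once the tumour was present. It uses the same 3 cancer libraries as the comparison with sham. Penk, Pnoc, Oprk1 and Oprl1 fell, so that 4 of the 8 genes were called lower and none higher, against 8.6% of all genes called lower, 8.63% called higher and 17.2% called in either direction. The nivolumab libraries of these 4 genes lay wholly below the cancer libraries, as did those of 19.5% of all genes. The median over the 8 genes was −0.36, against 0.00 for all genes. Penk fell 1.41-fold (log2 fold change −0.50, SE 0.09, adjusted p = 0.00899) and Oprl1 fell 1.35-fold (−0.43, SE 0.07, adjusted p = 0.00562). Oprk1 fell 1.66-fold (−0.73, SE 0.13, adjusted p = 0.00791). Pnoc fell 1.48-fold (−0.56, SE 0.15, adjusted p = 0.0315).

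The falls of Penk, Oprk1 and Oprl1 passed in all 18 alternatives, with adjusted p up to 0.0387, 0.0450 and 0.0358. With the ganglion marker mean held as a covariate their log2 fold changes were −0.58, −0.56 and −0.52. That fit cannot separate nivolumab from ganglion tissue, whose marker sums were highest in the nivolumab libraries. The call of Pnoc was lost with that covariate (−0.38, adjusted p = 0.184), in a fit of these 2 groups alone (adjusted p = 0.0532), without cancer 1 (0.0719), without cancer 2 (0.0688), without nivolumab 1 (0.0877) and without nivolumab 3 (0.0962). Pdyn, Pomc, Oprm1 and Oprd1 did not pass, with intervals of −1.06 to 0.48, −0.82 to 0.81, −0.67 to 0.57 and −0.39 to 0.58.

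Nivolumab was also compared with sham, which shares its nivolumab libraries with the comparison above and its sham libraries with that of cancer. Penk and Oprl1 were called lower and no gene higher, 2 of 8 against 3.84% of all genes called lower, 4.67% called higher and 8.51% called in either direction. The nivolumab libraries of both lay wholly below the sham libraries, as did those of 18.1% of all genes. Oprl1 fell 1.30-fold (log2 fold change −0.38, SE 0.07, adjusted p = 0.0152), and lost the call without nivolumab 1 (adjusted p = 0.0893) or nivolumab 3 (0.0712). Penk fell 1.29-fold (−0.37, SE 0.09, adjusted p = 0.0413), and lost the call when any 1 of the 9 libraries was left out, with adjusted p of 0.0560 to 0.140, and without sham 3 and cancer 3 together (0.111). Pnoc (−0.08, interval −0.42 to 0.25) and Oprk1 (−0.17, interval −0.47 to 0.13) were not called, and their 3 cancer libraries alone stood apart. Oprd1 was not called (0.28, adjusted p = 0.451), but was called higher with the ganglion marker mean as a covariate (0.81, adjusted p = 0.0396). Its adjusted p over the other alternatives ran from 0.188 to 0.803.

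**Figure D3:**
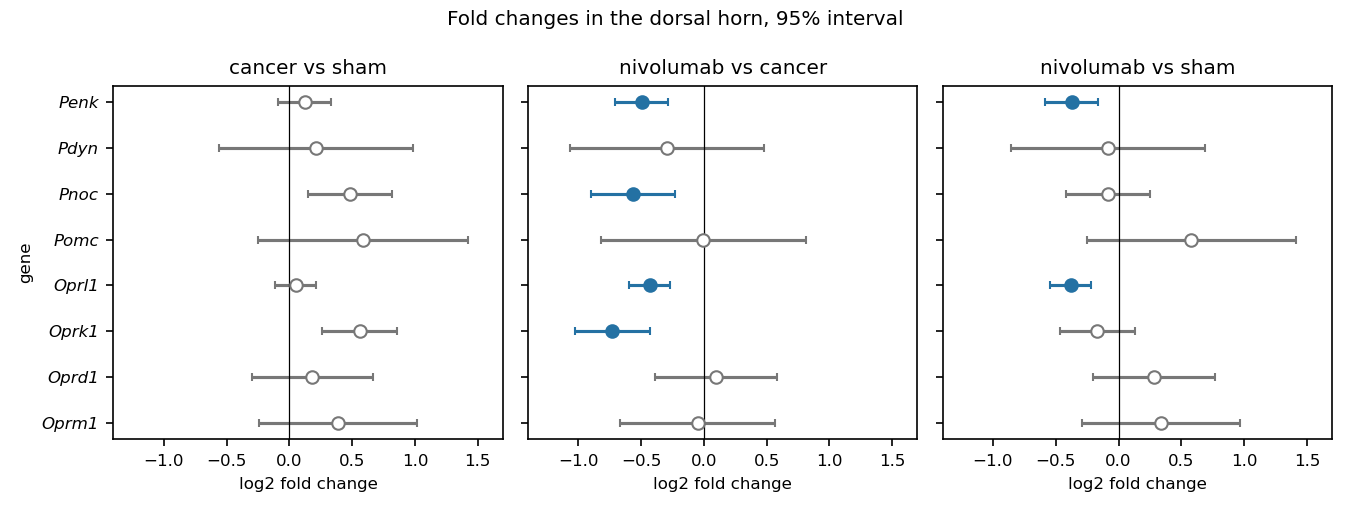
Log2 fold changes of the 8 opioid genes in the dorsal horn for the 3 comparisons, as points with 95% intervals, filled where the adjusted p was under 0.05. No gene is filled for cancer against sham, Penk, Pnoc, Oprl1 and Oprk1 are filled below 0 for nivolumab against cancer, and Penk and Oprl1 for nivolumab against sham.

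Markers of several cell types moved in the same comparison as the 4 genes that fell, those of inhibitory dorsal horn neurons among them. The sum of 10 such markers was 946, 1034 and 956 CPM in sham, 1186, 1224 and 1073 in cancer and 749, 831 and 744 with nivolumab, so that the 3 groups did not overlap. Against cancer, 5 of the 10 markers fell with nivolumab, with a median over the list of −0.55, where 8.6% of all genes were called lower. They were the GABA and glycine genes Slc32a1 (−0.56), Gad1 (−0.58), Gad2 (−0.68) and Slc6a5 (−0.60) and the transcription factor gene Pax2 (−0.68). Of 11 excitatory dorsal horn markers, 1 rose in this comparison (Tac1, 0.92) and 1 fell (Trh, −2.02), with a median over the list of −0.17. Their sum was 337 to 395 CPM in sham, 402 to 455 in cancer and 391.6 to 440.9 with nivolumab. Among other lists, 4 of 7 astrocyte markers fell and none rose, 3 of 8 Schwann cell markers and 3 of 7 oligodendrocyte markers rose and none fell, and of the 10 neuron markers 4 rose and 1 fell. The astrocyte marker sum overlapped between the groups, with 4204 to 6038 CPM in sham, 3746 to 5337 in cancer and 4406 to 5133 with nivolumab. The Schwann cell marker sum was 320 to 955 CPM in sham, 186 to 599 in cancer and 1114 to 1384 with nivolumab. The oligodendrocyte marker sum was 48050 to 58649 CPM in sham, 25796 to 36841 in cancer and 44800 to 49921 with nivolumab. In bulk tissue, fewer cells of a type and less RNA per cell cannot be told apart.

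As a percentage of the inhibitory marker sum, Penk was 16.93, 17.34 and 20.98 in sham, 16.6, 16.4 and 17.9 in cancer and 19.9, 17.6 and 16.4 with nivolumab. On this scale the 3 groups of Penk overlapped. Oprl1 had 6.97, 6.46 and 7.65% in cancer and 8.09, 7.60 and 7.65% with nivolumab, which also overlapped, as did Pnoc with 1.222, 1.026 and 1.124% against 1.22, 1.23 and 0.950%. Oprk1 had 1.29, 1.54 and 1.32% in cancer against 1.28, 1.27 and 1.21%, and did not overlap by a narrow gap. As a percentage of the excitatory marker sum, which includes the risen Tac1, all 4 genes lay lower with nivolumab than in cancer without overlap. Penk had 43.2, 45.6 and 47.6% in cancer and 33.8, 35.6 and 31.2% with nivolumab, and Oprl1 had 18.16, 17.95 and 20.40% against 13.75, 15.37 and 14.54%. Pnoc had 2.85 to 3.19% against 1.81 to 2.49%, and Oprk1 had 3.36 to 4.28% against 2.17 to 2.57%. The 4 genes were also apart on the sum of the 10 neuron markers, where Penk had 1.54 to 1.72% in cancer and 0.839 to 1.10% with nivolumab. That sum was itself lowest in cancer, with 11640 to 12423 CPM, which widens the gap on this scale. It was 13504 to 14556 CPM with nivolumab and 13158 to 14660 in sham. These ratios were computed after the data had been seen and have no test, and the part of these cell types in the falls was not tested. Whether ganglion tissue adds to the excitatory and neuron marker sums was not tested either.

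**Figure D4:**
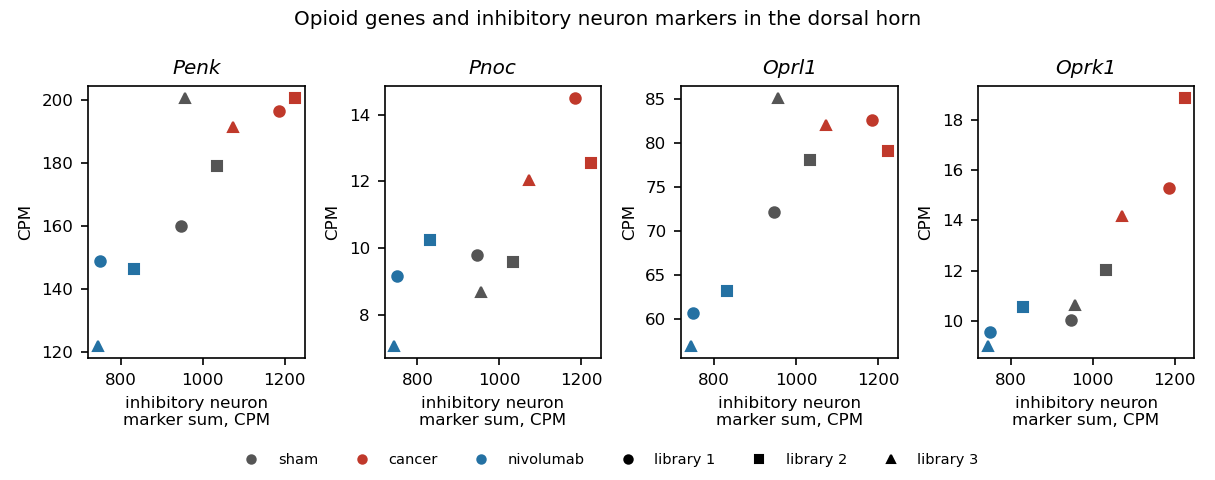
CPM of Penk, Pnoc, Oprl1 and Oprk1 in the 9 dorsal horn libraries against the summed CPM of 10 inhibitory neuron markers, with colour for the group and shape for the library number, on axes that do not start at 0. Libraries with a higher marker sum tend to have more of each gene, and the nivolumab libraries (744 to 831 CPM of markers) sit at the left of each panel, and lowest of all in Penk and Oprl1.

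Over the 9 dorsal horn libraries, Pearson's r with the mean log2 CPM of the inhibitory markers was 0.91 for Penk, 0.89 for Oprl1, 0.88 for Pnoc and 0.85 for Oprk1. It was 0.63 for Pdyn, 0.17 for Pomc, 0.04 for Oprm1 and 0.0050 for Oprd1. The tie was not to these markers alone. With the general neuron markers r was −0.78 for Penk, −0.77 for Oprl1, −0.78 for Pnoc and −0.80 for Oprk1. With the ganglion markers r was −0.57, −0.60, −0.55 and −0.58 for these genes in that order, and with the excitatory markers 0.47, 0.32, 0.79 and 0.61. Among the members, Penk and Oprl1 had r = 0.96 and Pnoc and Oprk1 had r = 0.85, while Oprm1 and Oprd1 had r between −0.36 and 0.41 with every other member. These are descriptions over libraries that share their groups.

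The genes whose log2 CPM followed each member most closely in the dorsal horn were sought among 11993 named genes, over 9 libraries. For Penk they were Snapc4, Chd8 and Pnck (r = 0.97 each), and for Oprl1 they were Slc4a10, Ankrd11 and Itpr1 (r = 0.99 each). Pnoc was followed by Simc1 (0.99), Shisa7 and Zmym3 (0.97 each), and Oprk1 by Pcnx2 (0.98), Glis3 (0.97) and Rasd2 (0.97). For Pdyn they were Plppr5 (0.95), Lmx1b (0.94), a transcription factor gene of excitatory dorsal horn neurons, and Plxnb2 (0.93). Oprd1 had Stk35 (0.94), Adgre1 (0.93) and Asic1 (0.92), and Oprm1 had Ccdc85a (0.96), Nup153 (0.95) and Midn (0.93).

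The machinery around the opioid genes was described with 7 lists of 58 genes, of which 57 were tested in the dorsal horn. With nivolumab against cancer 6 rose, 10 fell and 41 did not pass, where 8.63% of all genes were called higher and 8.6% lower. Of 7 genes that process neuropeptide precursors, Ctsl, a lysosomal protease that can also cut proenkephalin, rose from 124 ± 35.2 to 279 ± 60.5 CPM (1.17). Scg5, the chaperone of the convertase PC2, fell from 183 ± 3.17 to 126 ± 1.67 CPM (−0.54), and Pcsk1n, an inhibitor of the convertase PC1, fell by 0.44 on the log2 scale. The convertase genes themselves had 0.12 (Pcsk1) and −0.0046 (Pcsk2) and did not pass. Of 6 genes that break peptides down, Ace fell from 61.2 ± 11.1 to 32.6 ± 2.28 CPM (−0.91), while Mme, the enkephalin-degrading neprilysin, had 0.26 and did not pass.

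Of 6 genes for G protein subunits, Gnai3 (0.33) and Gnao1 (0.18) rose. Of 10 effector genes, the adenylyl cyclase Adcy1 (−0.54), the potassium channel subunit Kcnj9 (−0.42) and the P/Q-type calcium channel Cacna1a (−0.25) fell and none rose. Of 15 receptor regulators 2 rose and 3 fell. Those with the smallest adjusted p were the receptor kinase Grk3 (−0.47), Rgs17 (−0.28), the G protein regulator Rgs4 (1.59, from 127 ± 31.3 to 383 ± 122 CPM) and Gprasp1 (−0.32), which sorts receptors to lysosomes. Of 8 genes of the control of peptide gene transcription, Kcnip3, which encodes the DREAM protein known to repress Pdyn, rose from 67.0 ± 14.7 to 148 ± 10.8 CPM (1.14), and the coactivator gene Crtc1 fell (−0.30). None of 5 other opioid-binding genes passed with edgeR.

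The calls of Scg5, Ace, Grk3, Rgs17 and Kcnip3 passed in all 18 alternatives, and the other 11 lost the call in 3 or more. Leaving out nivolumab 1 or nivolumab 3 left 5 of the 57 genes called, and leaving out cancer 2 left 9. The count of all genes called also moved over the alternatives, here and for nivolumab against sham, with ranges in the closing section. Adcy1, Kcnj9, Cacna1a, Rgs4, Ctsl, Crtc1 and Gnao1 lost the call with the ganglion marker mean as a covariate. Scaling by the 10 neuron markers, which shifts the median of all genes by −0.23, gave 3 higher and 23 lower, against 467 and 4133 of all genes. It also turned Gnao1 to −0.05.

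Against sham, 5 of the 57 genes rose with nivolumab, 4 fell and 48 did not pass, where 4.67% of all genes were called higher and 3.84% lower. Those that rose were Rgs4 (1.69), Kcnip3 (0.73), the PC1 gene Pcsk1 (0.61), the N-type calcium channel Cacna1b (0.39) and Gnai3 (0.30). Ace (−0.66), Scg5 (−0.39), Rgs17 (−0.30) and Cpe (−0.23), the carboxypeptidase that trims the cut peptides, fell. Every one of these 9 calls was lost without nivolumab 1, 8 of them without nivolumab 3 or without sham 1, and 5 without sham 2. Rgs4, Kcnip3, Cacna1b and Gnai3 lost the call with the ganglion marker mean as a covariate, and Cpe and Gnai3 lost it without sham 3 and cancer 3.

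With cancer against sham none of the 57 genes passed with edgeR, as against 0.323% of all genes called. An unadjusted p under 0.05 was found for 14 of them and for 13.1% of all genes. DESeq2 called Fos (0.86), Gnaz (0.21) and Ece2 (0.21), and it called 366 of all genes, against 44 with edgeR.

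In the colon, Penk had 12.4, 33.1 and 2.87 CPM in sham, 27.7, 131.8 and 18.5 in cancer and 43.4, 24.4 and 35.9 with nivolumab. The groups overlapped, and the highest library (cancer 2) had 45.9 times the lowest (sham 3). Pdyn had 1.08, 3.65 and 0.167 CPM in sham, 0.949, 7.92 and 1.94 in cancer and 2.77, 2.05 and 1.64 with nivolumab. Cancer 2 and sham 3 were again the highest and the lowest library.

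Oprk1 had 0.601, 2.42 and 0.0667 CPM in the sham colon, 1.29, 9.14 and 2.29 in cancer and 3.41, 0.504 and 0.838 with nivolumab. Oprl1 ran from 0.133 to 3.79 CPM and Oprd1 from 0.601 to 2.87 CPM over the 9 libraries. For these 2 receptors too, cancer 2 was the highest and sham 3 the lowest library, and all 5 genes overlapped between the groups. Groups did not overlap in 19.3% of all colon genes for cancer against sham, in 15.2% when nivolumab was set against cancer and in 14.9% when it was set against sham.

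Pomc (0 to 9 counts a library), Oprm1 (0 to 7 counts) and Pnoc had too few counts in the colon to be tested. Pnoc had 0 counts in 8 colon libraries and 8 counts (0.268 CPM) in nivolumab 3. A count of 0 allows up to 3 counts, which corresponds to 0.0950 to 0.149 CPM in these libraries. Low counts of 1 were rarer than counts of 2 (a median of 33 against 189 genes per colon library), and the reason is not stated in the labels.

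None of the 5 genes tested in the colon was called in any comparison, where 0% of the 13445 genes tested were called by edgeR. At an unadjusted p under 0.05 there were 0 of the 5, against 10.9%, 9.84% and 6.45% of all genes in the 3 comparisons in the same order. DESeq2 called 379, 181 and 147 genes in them and none of the 5. For cancer against sham the log2 fold changes were 1.88 for Penk (interval −0.20 to 3.96), 2.05 for Oprk1 (−0.73 to 4.83), 1.15 for Pdyn (−1.19 to 3.49), 0.85 for Oprl1 (−1.70 to 3.41) and 0.31 for Oprd1 (−1.34 to 1.96). For nivolumab against cancer they were −0.78 for Penk (−2.80 to 1.24), −1.42 for Oprk1 (−4.14 to 1.29), −0.74 for Pdyn, −0.84 for Oprl1 and −0.96 for Oprd1. Against sham, nivolumab gave 1.10 for Penk, 0.41 for Pdyn, 0.62 for Oprk1, 0.02 for Oprl1 and −0.65 for Oprd1. The comparisons share libraries in pairs. Without cancer 2, the values for cancer against sham turned to −0.12 for Pdyn, −0.28 for Oprd1 and −0.11 for Oprl1, and those for nivolumab against cancer to 0.55 for Penk, 0.55 for Pdyn and 0.15 for Oprl1. Fold changes of these sizes could not be told from 0 at the spread between these libraries, with a biological coefficient of variation of 0.376 in the colon against 0.170 in the dorsal horn.

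Markers of enteric neurons and of smooth muscle differed widely between the colon libraries. The sum of 10 enteric neuron markers was 116, 302 and 23.6 CPM in sham, 133, 726 and 197 in cancer and 254, 150 and 192 with nivolumab, a 30.8-fold range over all 9 libraries. That of 6 smooth muscle markers ran from 1061 CPM (sham 3) to 19300 (cancer 3). Pearson's r of the opioid genes with the mean log2 CPM of the enteric neuron markers was 0.98 for Pdyn, 0.96 for Penk, 0.94 for Oprk1, 0.91 for Oprl1 and 0.74 for Oprd1, as a description over 9 libraries that share this difference. Its part in the spread of the opioid genes was not tested beyond the covariate fit given with the ratios. The genes most alike in the colon were led by Chrna3, Gng4 and Tubb3 for Pdyn (r = 0.99 each), Gprasp2 (1.00), Dusp26 and Kcnip4 (0.99 each) for Oprk1, Pde4b (0.99) for Penk, Pitpnm2 (0.98) for Oprl1 and Dmd (0.98) for Oprd1. Chrna3 encodes a nicotinic receptor subunit of autonomic neurons and Tubb3 is itself 1 of the enteric markers.

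**Figure D5:**
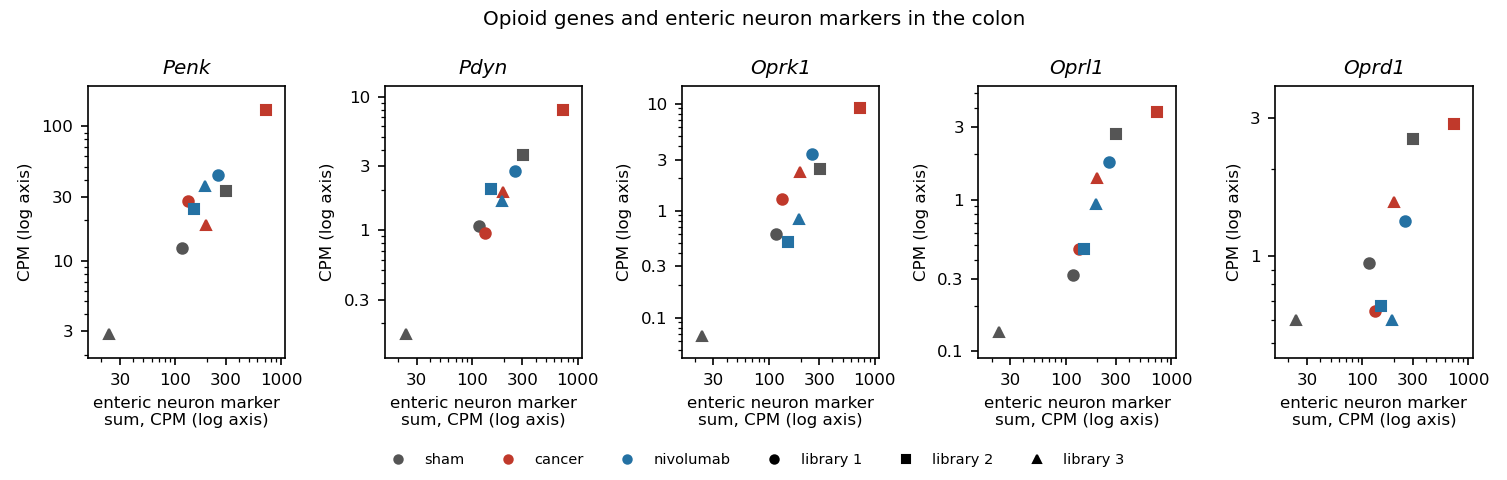
CPM of the 5 opioid genes tested in the colon against the summed CPM of 10 enteric neuron markers, both on log axes, with 1 point per library, colour for the group and shape for the library number. Each gene is highest in cancer 2 and lowest in sham 3, the libraries with the highest (726 CPM) and the lowest (23.6 CPM) marker sum.

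As a percentage of the enteric neuron marker sum, Penk was 10.69, 10.99 and 12.18 in sham, 20.9, 18.1 and 9.41 in cancer and 17.1, 16.2 and 18.7 with nivolumab. On this scale the nivolumab libraries lay above the sham libraries, and cancer spanned both. The ratio was computed after the data had been seen and has no test. With the mean of the enteric markers as a covariate in edgeR, the log2 fold change of Penk was 0.63 for nivolumab against sham (adjusted p = 0.428) and 0.51 for cancer against sham (adjusted p = 0.705). Pdyn was 0.708 to 1.21% of the marker sum in sham, 0.716 to 1.09% in cancer and 0.854 to 1.36% with nivolumab, and overlapped. Of the 54 pathway genes tested in the colon, none passed in any comparison with edgeR, and 7 had an unadjusted p under 0.05 for cancer against sham, 9 for nivolumab against cancer and 5 when nivolumab was set against sham. The shares of all genes at that p were 10.9%, 9.84% and 6.45%. DESeq2 called Gnai2, Prkaca and Rgs14 in the first, Gnai1 and Fos in the second, and Fos and Fosb in the third of these. Of all genes it called 379, 181 and 147 in that order.

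The responses of the tissues were compared by an interaction in a fit of all 18 libraries over 14164 genes, for the 5 members with at least 100 colon counts. None was called for cancer against sham, where 0.155% of all genes were, or for nivolumab against cancer, where 0.127% were. For cancer against sham the dorsal horn change of Penk was lower than its colon change by a log2 difference of −1.83 (SE 0.99, adjusted p = 0.516). For nivolumab against cancer the difference in Penk was 0.37 (SE 0.98, adjusted p = 0.877), and that in Oprk1 was 0.77 (SE 1.21, adjusted p = 0.770). In the colon the values for nivolumab against cancer were negative in all 5 genes, among them Penk (−0.78), Oprk1 (−1.42) and Oprl1 (−0.84). None of them was called, and their intervals were wide. Without cancer 2 the values of Penk, Pdyn and Oprl1 were positive (0.55, 0.55 and 0.15), and those of Oprk1 and Oprd1 stayed negative. A fall confined to the dorsal horn was thus not shown. Pnoc had too few colon counts to be compared.

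On GRCm38, Penk lies on chromosome 4 (4133531 to 4138819, minus strand), Oprl1 on chromosome 2 (181715016 to 181720985, plus strand), Oprk1 on chromosome 1 (5588466 to 5606131, plus strand) and Pnoc on chromosome 14 (65400673 to 65425472, minus strand). Penk overlaps the non-coding gene A830012C17Rik on the other strand, and Oprm1 (chromosome 10, 6758506 to 7038198, plus strand) overlaps Gm10945 and Ipcef1 on the other strand. No source used here gives the strand setting of the counting, so reads of these partners cannot be told apart.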

How the data were processed

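The values deposited by the authors are whole-number read counts per gene, 1 table per tissue, with no normalisation. Per the submitters' processing notes, the tools were FastQC 0.11.5, Trimmomatic, HISAT2 and StringTie, and the build was GRCm38. For the counting tool, strand setting and annotation version, nothing is stated in the sources used here. The 8 opioid genes and all gene lists were chosen with earlier results of these data known.

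Each tissue was fitted with its 9 libraries in edgeR 4.0.16 (R 4.3.3), with TMM scaling, the default filter by group (13609 genes left in the dorsal horn, 13445 in the colon) and the robust quasi-likelihood test. Adjusted p-values follow Benjamini and Hochberg over all genes tested, two-sided, with a threshold of 0.05. Log2 CPM used a prior count of 2. Floors cover counting error alone, because reads amplified by PCR carried no molecular identifiers. Libraries of 1 group all differed beyond sampling noise, with a chi-square per degree of freedom of at least 9.62 (dorsal horn) and 71.0 (colon). The labels do not say that replicate numbers mark a shared batch, but in the dorsal horn the deviations of same-numbered cancer and nivolumab libraries correlated in all 3 pairs (0.19, 0.28 and 0.19), so the block was also fitted there as a pairing. Alternatives used DESeq2 1.42.0, other scaling, no filter, marker covariates and libraries left out. All 8 genes are named throughout. In each pathway list, up to 4 called genes are named by smallest adjusted p, or else 1 or 2 with the smallest p, and a few more for contrast, chosen after their values were seen. The gene this rule would name in 1 list is not reported here. The 3 most alike genes were taken by Pearson's r among genes averaging 1 or more on the log2 CPM scale. Gene positions, exon lengths and coding sequences come from GENCODE M21. The fits were also run on simulated data, with a fixed spread and planted changes larger than those of the opioid genes in the dorsal horn. That run therefore does not bear on changes of that size, or on the spread of the colon libraries.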

Additional observations from a re-analysis of the deposited data

How the results depend on the processing

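All values in this section are log2 fold changes unless they are called counts. Over 887 values of the members under alternatives, 808 kept their direction and side of the threshold, 57 changed direction, 19 lost a call and 3 gained one. The cause was not tested, beyond fewer samples where libraries were left out.

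The count of members called in the dorsal horn for cancer against sham went from 0 to 1 with DESeq2 and with the ganglion covariate. That for nivolumab against sham went from 2 to 1 in a fit of the 2 groups alone and without sham 3 and cancer 3, rose to 3 with the ganglion covariate (Oprd1 higher, Penk and Oprl1 lower), and was 0 to 1 on leaving out single libraries. The counts for all genes also moved, from 44 to between 2 and 366 for cancer against sham, from 2345 to between 771 and 4600 for nivolumab against cancer, and from 1158 to between 95 and 2702 for nivolumab against sham. In the colon they went from 0 to at most 379, 181 and 147. Scaling by neuron markers shifted the median of all dorsal horn genes by −0.23 (nivolumab against cancer; 467 genes higher and 4133 lower, against 1175 and 1170) and −0.18 (nivolumab against sham; 424 and 2278, against 635 and 523), and 4 and 2 members were still called lower. Pathway genes called went from 16 to 26 and from 9 to 14 with it.

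Where replicate numbers were taken to pair the samples (nivolumab against cancer in the dorsal horn), the replicate block changed no member's call, and it gave 3066 genes called of all genes and 17 pathway genes. In the other comparisons not every same-numbered pair was over 0.1: over all comparisons correlations ran from −0.08 to 0.53 in the dorsal horn (6 of 9 over 0.1) and from −0.44 to 0.46 in the colon (3 of 9), so the numbers were not taken to pair those samples. With the block 0, 4 and 2 members were called in the 3 dorsal horn comparisons as without it, all genes called for cancer against sham came to 115, and colon Penk for nivolumab against cancer turned to 0.014.

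Direction changed in the dorsal horn for nivolumab against cancer in Pdyn (0.12) and Pomc (0.11) with the ganglion covariate, in Oprd1 without sham 3 and cancer 3 (−0.078) and with neuron scaling (−0.14), and in the pathway gene Gnao1 with neuron scaling (−0.053). For nivolumab against sham it changed with the ganglion covariate in Pdyn (0.36), Pnoc (0.10) and Oprk1 (0.0067). In the colon it changed for cancer against sham in Pdyn, Oprd1 and Oprl1 with the enteric covariate (−0.34, −0.61, −0.40) and without sham 3 and cancer 2, an alternative chosen after seeing the data (−0.65, −0.62, −0.62). For nivolumab against cancer Penk, Pdyn and Oprl1 changed with the covariate (0.12, 0.37, 0.035) and without that pair (0.56, 0.56, 0.16). For nivolumab against sham Oprl1 changed with upper-quartile factors (−0.0080), the covariate (−0.37) and without the pair (−0.46), as did Pdyn without the pair (−0.10).

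On leaving out 1 library at a time, the values that changed direction in the dorsal horn ranged as follows. For cancer against sham Oprl1 ran from −0.0044 to 0.11. For nivolumab against cancer Oprd1 ran from −0.079 to 0.21, Oprm1 from −0.28 to 0.17, Pdyn from −0.57 to 0.016 and Pomc from −0.40 to 0.23. For nivolumab against sham Pdyn ran from −0.34 to 0.23 and Pnoc from −0.19 to 0.058. In the colon, for cancer against sham Oprd1 ran from −0.28 to 1.11, Oprl1 from −0.11 to 3.03 and Pdyn from −0.12 to 2.52. For nivolumab against cancer Oprl1 ran from −1.49 to 0.15, Pdyn from −1.23 to 0.55 and Penk from −1.20 to 0.55. For nivolumab against sham Oprd1 ran from −1.14 to 0.11, Oprk1 from −0.65 to 2.18, Oprl1 from −0.60 to 2.16 and Pdyn from −0.11 to 1.74. The difference between tissues for cancer against sham ran from −0.87 to 0.50 in Oprd1, −2.92 to 0.18 in Oprl1 and −2.24 to 0.37 in Pdyn. For nivolumab against cancer it ran from −0.52 to 2.02 in Oprk1, −0.60 to 1.07 in Oprl1, −0.86 to 1.00 in Pdyn and −1.07 to 0.77 in Penk.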
